A study of Mus musculus with 10 samples.

Results

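The genes described here are 41 transcripts that interferons induce in mouse cells, measured in whole back skin of young mice carrying 1 of 2 staphylococci. They were taken as a list of symbols, 23 assigned to a type I class (the Ifit, Oas, Mx and Isg15 genes and their relatives) and 18 to an interferon-gamma class (the Gbp and Irgm GTPases, Cxcl9, the immunoproteasome genes Psmb8 and Psmb9, Tap1 and others). Cxcl10, which both kinds of interferon induce, was placed in the interferon-gamma class. All 41 symbols matched 1 of the 46078 genes listed, and all 41 were among the 16909 genes with enough reads to be tested.

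Every mouse was C57BL/6, was raised under specific-pathogen-free conditions and carried no engineered allele named in the labels. Mice of the SA group were given Staphylococcus aureus SF8300. Those of the SE group were given Staphylococcus epidermidis Tü3298, from a species common on healthy skin. Both groups had 100 µl of bacterial suspension spread on the skin on alternate days from day 3 to day 19. At day 21 lightly defatted back skin was sampled with an 8 mm punch. Each group held 5 libraries, numbered 1 to 5 by the titles, and a number does not tie an SA library to an SE library. Whether every library is a separate animal is not stated in the labels, so p-values reflect how much these libraries vary, which may be technical, and skin without added bacteria was not analysed here.

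Interferons are secreted proteins that warn cells of infection. Type I interferons (interferon-alpha, -beta and, in keratinocytes, -kappa) bind the receptor made of Ifnar1 and Ifnar2 and activate a complex that holds Stat2 and Irf9 and binds the interferon-stimulated response element (ISRE) in front of antiviral genes. Interferon-gamma, made mainly by T cells and natural killer cells, binds Ifngr1 and Ifngr2 and acts through the gamma-activated site (GAS), with targets that include GTPases against intracellular microbes, chemokines that attract T cells and the machinery of antigen presentation. Many genes answer to both kinds of interferon, so the class names label the list and not the ligand at work.

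Promoter sequences show how alike the control regions of some members are. RefSeq promoter windows, from 250 bases before to 50 bases after the transcription start (GRCm38.p6), were on hand for 31 members. Mx1, Mx2, Oas2, Usp18, Rtp4, Zbp1, Gbp4, Gbp6, Iigp1 and Nos2 had no entry. The ISRE was searched as GAAANNGAAA and the GAS as TTCNNNGAA, on both strands, and matches of the same or of both motifs can overlap. An ISRE match was in the windows of 11 of 17 type I members (64.7%) and 8 of 14 interferon-gamma members (57.1%), against 1079 of 27025 genes with windows of this length (3.99%). A GAS match was in 3 of 17 (17.6%) and 6 of 14 (42.9%), against 9.55% of all genes. A match says that these letters are present and does not show that a factor binds there.

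The following 120-base stretches of those windows are given 5′ to 3′ on the gene's strand, with the motif matches in capitals. Each lies before the RefSeq start. That of Irgm2 lies inside the longer GENCODE span of the gene (chromosome 11, 58199618 to 58222782), though in no annotated exon. Isg15 and Rsad2 are shown as type I members, the neighbours Ifit3 and Ifit3b because the stretches shown are the same, and Igtp and Irgm2 because each sets a GAS beside an ISRE.
Isg15 (chr4:156200826-156200945, minus strand): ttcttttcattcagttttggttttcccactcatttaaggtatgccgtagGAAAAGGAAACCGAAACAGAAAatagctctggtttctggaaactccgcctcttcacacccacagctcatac
Rsad2 (chr12:26456508-26456627, minus strand): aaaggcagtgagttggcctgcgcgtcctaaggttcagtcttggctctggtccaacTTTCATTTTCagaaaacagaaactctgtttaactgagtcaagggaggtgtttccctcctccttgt
Ifit3 (chr19:34583335-34583454, plus strand): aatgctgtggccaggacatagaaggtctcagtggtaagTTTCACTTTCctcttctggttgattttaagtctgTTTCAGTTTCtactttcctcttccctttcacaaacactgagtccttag
Ifit3b (chr19:34607731-34607850, plus strand): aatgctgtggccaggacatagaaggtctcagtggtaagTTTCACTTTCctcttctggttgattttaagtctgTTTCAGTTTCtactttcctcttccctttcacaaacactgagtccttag
Igtp (chr11:58199436-58199555, plus strand): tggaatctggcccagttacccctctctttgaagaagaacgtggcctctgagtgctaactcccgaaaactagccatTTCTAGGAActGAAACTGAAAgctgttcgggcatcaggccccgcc
Irgm2 (chr11:58214852-58214971, plus strand): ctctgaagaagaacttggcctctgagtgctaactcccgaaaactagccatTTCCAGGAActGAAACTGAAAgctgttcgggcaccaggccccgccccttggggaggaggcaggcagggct
In Isg15 the capitals are 3 overlapping ISRE matches. The Ifit3 and Ifit3b stretches were identical at 120 of 120 bases, each with 2 ISRE matches on the opposite strand whose starts lie 34 bases apart. Igtp and Irgm2 shared 91 of 95 aligned bases, and in both the GAS ends 2 bases before the ISRE begins.

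The libraries held 21140654 to 25417851 gene reads, and a member had between 12 and 1798 reads in a library. Levels are CPM, read counts brought to one common library total. SE libraries 3, 4 and 5 stood apart on the first principal component (45.2% of the variance), at 37.9, 41.8 and 54.3 against -32.5 to -9.34 for the other 7. The 6 hair follicle markers (Krt71, Krt25, Krt27, Krt31, Krt35 and Tchh) summed to 739, 362 and 2598 CPM in SE 3, SE 4 and SE 5 and to 11.5 to 67.9 CPM in the other 7 libraries. The 6 keratinocyte markers, which check the tissue label, summed to 8609 to 12836 CPM in all 10 libraries. Fold changes of single genes from the edgeR fit are given over all libraries and without these 3.

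No member of the list differed between SA and SE skin past the threshold, although most members had slightly higher mean levels in SA. With edgeR's quasi-likelihood test and Benjamini-Hochberg adjustment over all tested genes, 0 of 41 members were called at an adjusted p under 0.05, where the background over all tested genes was 0.0769%. At an unadjusted p under 0.05, 6 of 41 members were higher in SA (Ifih1, Ddx58, Rsad2, Xaf1, Ifit3b and Psmb9; background 4.54%) and 0 were lower (background 6.53%). The fitted difference was above 0 for 36 of 41 members (background 48.3%). Its median was 0.21 on the log2 scale over the type I class (21 of 23 above 0) and 0.13 over the interferon-gamma class (15 of 18), against -0.0080 over all tested genes. Members that answer to the same signals are not independent, and no test was run on these counts. Without SE libraries 3, 4 and 5, 17 of 41 members were above 0 (background 49.6%), the medians were -0.043 and 0.043, and 0 members were called (background 0.233%).

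**Figure D1:**
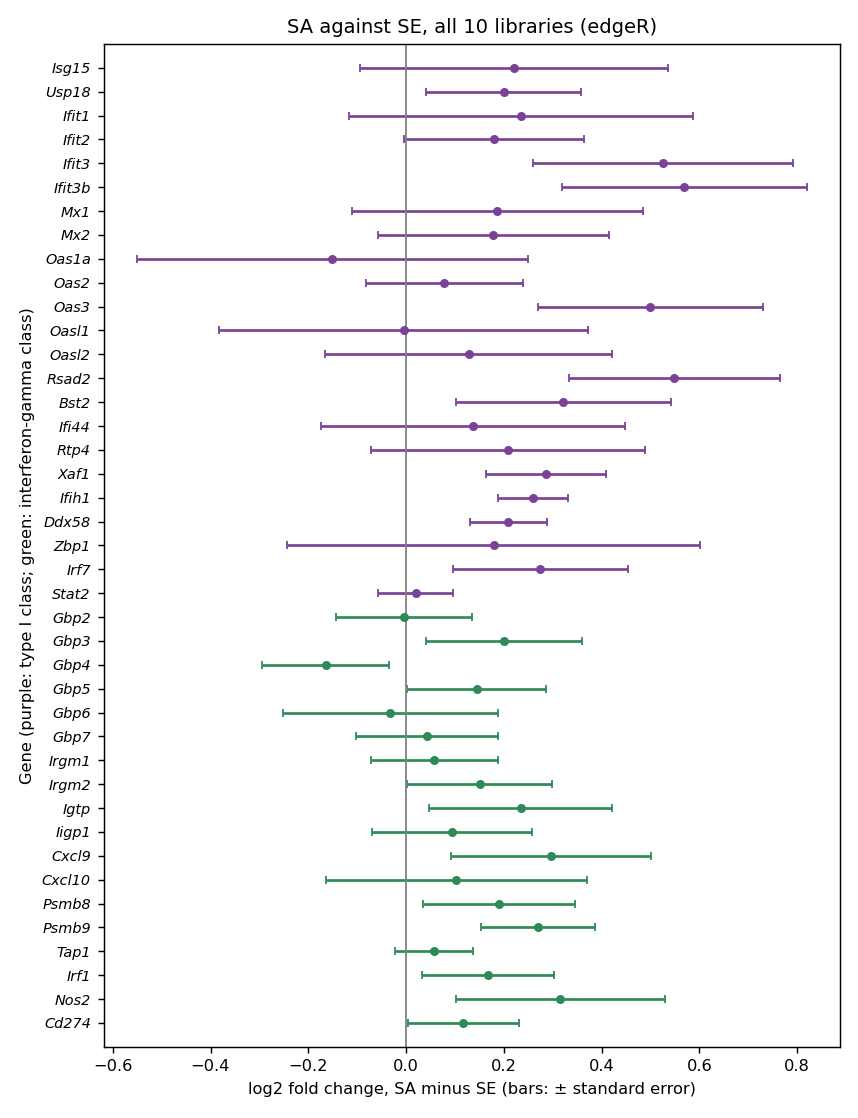
Fitted log2 fold change, SA minus SE, of each of the 41 members over all 10 libraries, with bars of 1 standard error; type I members are purple and interferon-gamma members green. Points lie above 0 for 36 members, and Ifih1, Rsad2 and Ifit3b are among the 6 with an unadjusted p under 0.05.

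The RNA sensors Ifih1 and Ddx58 varied little between libraries. Ifih1 encodes MDA5, a cytoplasmic sensor of long double-stranded RNA, and lies at chromosome 2, 62595798 to 62646255, minus strand (GRCm38, as for all gene positions here). In SA libraries 1 to 5 it had 26.5, 32.1, 28.1, 30.9 and 30.2 CPM, and in SE libraries 1 to 5 it had 25.6, 23.99, 24.7, 25.5 and 23.6 CPM. It was the only member whose groups did not overlap, every SA library lying above every SE library (background for such genes 1.13%). Mean levels were 29.6 ± 2.23 against 24.7 ± 0.897 CPM (SD, n = 5 each), 1.20-fold higher in SA, with a log2 fold change of 0.26 ± 0.0712 (the error of a fold change is its standard error throughout; edgeR adjusted p = 0.207). DESeq2 called it (adjusted p = 0.0452; background for DESeq2 1.76%), and over all alternatives its adjusted p ranged from 0.0452 to 0.622. Its log2 fold change was 0.26 ± 0.103 without SE libraries 3, 4 and 5. Ddx58 encodes RIG-I, the sensor of RNA with a free triphosphate (chromosome 4, 40203773 to 40239828, minus strand). It had 32.6, 37.1, 34.5, 32.6 and 32.04 CPM in SA libraries 1 to 5 and 30.8, 26.4, 32.8, 26.6 and 29.3 CPM in SE. Here SE 3 reached the level of the lower SA libraries, so the groups overlapped (33.8 ± 2.08 against 29.2 ± 2.72 CPM, SD, n = 5 each; log2 fold change 0.21 ± 0.0790, edgeR adjusted p = 0.372; 0.24 ± 0.101 without SE libraries 3, 4 and 5).

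Zbp1, a sensor of Z-form nucleic acids that can trigger cell death, was the other extreme and was singled out after its values were seen. It had 5.39, 6.47, 8.72, 6.91 and 6.10 CPM in SA libraries 1 to 5 and 13.6, 7.16, 3.96, 2.61 and 2.19 CPM in SE libraries 1 to 5. Its highest level, in SE 1, was 6.21-fold its lowest, in SE 5, the widest span of any member, and both ends were SE libraries. The log2 fold change was 0.18 ± 0.423 (edgeR adjusted p = 0.883), and -0.63 ± 0.246 without SE libraries 3, 4 and 5.

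The Ifit proteins bind foreign RNA, and the 4 Ifit members were all highest in SE 1. Ifit3 (chromosome 19, 34583531 to 34588731, plus strand) had 7.78, 7.61, 7.63, 7.09 and 5.70 CPM in SA libraries 1 to 5. In SE libraries 1 to 5 it had 9.10, 4.53, 4.81, 3.48 and 2.88 CPM, so that SE 1 lay above every SA library and the other 4 SE libraries below every one. Its log2 fold change was 0.52 ± 0.265 over all libraries (edgeR adjusted p = 0.490), 0.87 ± 0.176 without SE 1, where it was the only member called (adjusted p = 0.0426; background 1.32%), and 0.070 ± 0.246 without SE libraries 3, 4 and 5. Ifit3b (chromosome 19, 34607970 to 34613401, plus strand) had 2.02, 1.58, 2.10, 1.72 and 1.94 CPM in SA and 2.14, 1.05, 1.20, 0.778 and 1.10 CPM in SE, in library order, and again SE 1 alone among the SE libraries reached the SA levels (log2 fold change 0.57 ± 0.251, edgeR adjusted p = 0.434; 0.23 ± 0.300 without SE libraries 3, 4 and 5). Of 50-base stretches in their exons, 51.2% of those of Ifit3 and 45.00% of those of Ifit3b occur in the other gene, so the split of reads between the pair is uncertain. Ifit1 had 5.86, 8.58, 8.55, 7.95 and 4.40 CPM in SA and 12.9, 5.01, 5.03, 3.57 and 3.38 CPM in SE, with SE 1 the highest library and SE 4 and SE 5 the lowest (log2 fold change 0.23 ± 0.352, edgeR adjusted p = 0.811; -0.35 ± 0.342 without SE libraries 3, 4 and 5). Without SE 1 alone its log2 fold change was 0.73 ± 0.225 (edgeR adjusted p = 0.133). Leaving out SE 1, the highest library for Ifit3 and Ifit1, raises these differences by construction. Ifit2 followed the same order at its top, with 19.2 CPM in SE 1 against 11.2 to 17.3 CPM in SA and 9.66 CPM in the lowest SE library.

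**Figure D2:**
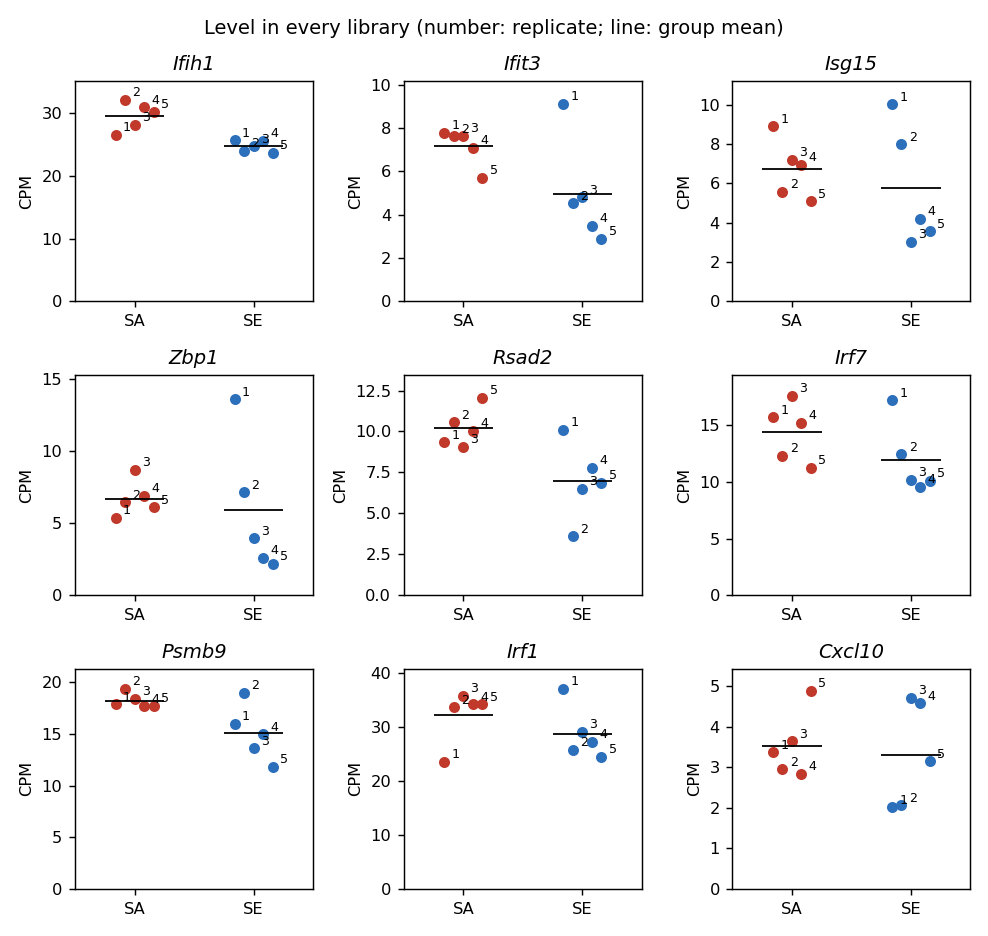
Level in CPM of 9 members in every library, SA in red and SE in blue, with the replicate number beside each point and a line at each group mean. For Ifih1 all SA points lie above all SE points, for Zbp1, Isg15 and Ifit3 the SE points spread from the highest to the lowest level of all, and for Irf1 SA 1 lies below the other SA points.

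Isg15, a ubiquitin-like protein that is joined to other proteins, and Usp18, the protease that removes it and dampens the type I receptor, were both highest in SE 1. Isg15 had 8.90, 5.59, 7.19, 6.95 and 5.09 CPM in SA libraries 1 to 5 and 10.03, 8.00, 3.03, 4.21 and 3.56 CPM in SE libraries 1 to 5. SE 1 was the highest library, while SE 3, SE 4 and SE 5 were the 3 lowest libraries (log2 fold change 0.22 ± 0.315, edgeR adjusted p = 0.801, and -0.42 ± 0.215 without those 3). Usp18 lay within 8.30 to 8.85 CPM in SA, and in SE it ran from 6.08 to 10.9 CPM (log2 fold change 0.20 ± 0.159, adjusted p = 0.645; -0.034 ± 0.189 without SE libraries 3, 4 and 5).

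The oligoadenylate synthetases make the messenger that activates RNase L, and their fitted differences had both signs. Oas1a had 1.27, 1.63, 3.51, 2.71 and 1.37 CPM in SA libraries 1 to 5 and 4.63, 2.68, 1.42, 1.37 and 1.46 CPM in SE libraries 1 to 5. SE 1 was highest and SA 1 lowest, and the group order was opposite to that of most members (log2 fold change -0.15 ± 0.400, edgeR adjusted p = 0.899; 0.27 ± 0.344 without SE 1 and -0.80 ± 0.389 without SE libraries 3, 4 and 5). Of its 50-base exon stretches 57.6% also occur in Oas1g. Oas3 had 1.78 to 2.85 CPM in SA and 1.16 to 2.54 CPM in SE (log2 fold change 0.50 ± 0.230, edgeR adjusted p = 0.453; 0.13 ± 0.265 without SE libraries 3, 4 and 5). Oas2 spanned 5.20 to 8.67 CPM in SA and 5.40 to 8.26 CPM in SE, an overlap of nearly the whole range. Of the related genes, Oasl1 had 0.836 to 1.80 CPM in SA and 0.534 to 2.38 CPM in SE, and Oasl2 had 9.58 to 13.98 and 6.32 to 22.04 CPM. For both, SE 1 was the highest of the 10 libraries.

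The Mx proteins are dynamin-like GTPases against viruses. Mx2 is annotated as a polymorphic pseudogene, and transcript levels of either gene do not show that working protein is made in these mice. Mx1 had 2.77, 4.40, 1.93, 2.80 and 3.23 CPM in SA libraries 1 to 5 and 4.71, 2.86, 1.74, 1.88 and 2.06 CPM in SE libraries 1 to 5, with SE 1 and SA 2 highest (log2 fold change 0.19 ± 0.298, edgeR adjusted p = 0.824; -0.32 ± 0.300 without SE libraries 3, 4 and 5). Mx2 lay between 1.09 and 1.73 CPM in SA and between 1.02 and 2.01 CPM in SE, again highest in SE 1.

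Among the other antiviral members, Rsad2 and Xaf1 had the smallest p. Rsad2 encodes viperin, an enzyme that makes a chain-terminating nucleotide (chromosome 12, 26442746 to 26456452, minus strand). In SA libraries 1 to 5 it had 9.33, 10.6, 9.07, 10.02 and 12.04 CPM and in SE libraries 1 to 5 10.1, 3.60, 6.50, 7.78 and 6.85 CPM. SE 1 was within the SA range and the other 4 SE libraries lay below it, SE 2 the lowest (10.2 ± 1.18 against 6.97 ± 2.35 CPM, SD, n = 5 each; 1.46-fold; log2 fold change 0.55 ± 0.217, edgeR adjusted p = 0.396; 0.57 ± 0.309 without SE libraries 3, 4 and 5). Its log2 fold change without SE libraries 3, 4 and 5 was 0.57 ± 0.309, and over all alternatives the adjusted p ran from 0.105 to 0.714. Xaf1, a promoter of cell death, had 7.97, 10.8, 10.04, 9.66 and 8.49 CPM in SA and 7.57, 9.18, 7.21, 7.46 and 7.08 CPM in SE, in library order. Of the SE libraries only SE 2 was above the lower SA values (log2 fold change 0.29 ± 0.122, edgeR adjusted p = 0.426; 0.17 ± 0.162 without SE libraries 3, 4 and 5).

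Bst2, the tetherin that holds budding viruses at the cell surface, had 23.2, 19.8, 26.2, 23.2 and 18.7 CPM in SA libraries 1 to 5 and 26.4, 23.6, 14.6, 11.7 and 12.5 CPM in SE libraries 1 to 5. SE 1 was the highest library, SE 2 lay among the SA libraries, and SE 3, SE 4 and SE 5 were the 3 lowest (log2 fold change 0.32 ± 0.220, edgeR adjusted p = 0.595; -0.17 ± 0.137 without those 3). Ifi44 had 1.54 to 3.61 CPM in SA and 1.29 to 3.50 CPM in SE, and Rtp4, a chaperone of receptors, had 6.83 to 9.82 CPM in SA and 4.41 to 12.6 CPM in SE. Both had overlapping groups.

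Of the transcription factors of the type I class, Irf7, which drives interferon-alpha genes and is itself induced, had 15.7, 12.3, 17.6, 15.2 and 11.2 CPM in SA libraries 1 to 5 and 17.2, 12.4, 10.2, 9.57 and 10.1 CPM in SE libraries 1 to 5. SE 1 stood at the level of the highest SA libraries, and SE 3, SE 4 and SE 5 were below every SA library (log2 fold change 0.27 ± 0.179, edgeR adjusted p = 0.579; -0.037 ± 0.195 without those 3). Stat2, a subunit of the complex that type I interferons activate, had 42.6, 44.8, 42.4, 40.8 and 36.2 CPM in SA and 45.8, 39.4, 37.9, 39.1 and 41.8 CPM in SE. It had the narrowest span of the members, 1.27-fold between its highest and lowest library, and its groups overlapped almost completely (log2 fold change 0.020 ± 0.0770, adjusted p = 0.932; -0.038 ± 0.103 without SE libraries 3, 4 and 5).

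In the interferon-gamma class, the guanylate-binding proteins, GTPases that attack the compartments of intracellular microbes, had fitted differences above 0 for 3 of 6 members. Gbp2 had 17.8, 26.5, 27.7, 24.2 and 23.96 CPM in SA libraries 1 to 5 and 28.2, 20.9, 22.04, 20.3 and 28.9 CPM in SE libraries 1 to 5. SA 1 was its lowest library and SE 5 and SE 1 its highest, and the group means were 24.00 ± 3.82 and 24.1 ± 4.16 CPM (SD, n = 5 each; log2 fold change -0.0040 ± 0.139, edgeR adjusted p = 0.994; -0.029 ± 0.171 without SE libraries 3, 4 and 5). Gbp4 had 9.75, 11.97, 8.46, 10.1 and 10.7 CPM in SA and 9.67, 10.2, 10.9, 13.5 and 13.02 CPM in SE, with SE 4 and SE 5 highest (log2 fold change -0.16 ± 0.130, adjusted p = 0.643; 0.046 ± 0.152 without SE libraries 3, 4 and 5). Gbp3 had 12.7 to 17.2 CPM in SA and 10.9 to 19.7 CPM in SE, Gbp5 4.03 to 6.51 and 4.62 to 5.32 CPM, and Gbp7 14.9 to 23.6 and 16.5 to 24.9 CPM. SA 1 was the lowest SA library for each of these 3. Gbp6 had 0.921 to 1.78 CPM in SA and 1.10 to 1.78 CPM in SE, and 70.7% of its 50-base exon stretches occur in other Gbp genes or a predicted gene, so its level is uncertain.

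All 4 immunity-related GTPases, Irgm1, Irgm2, Igtp and Iigp1, had fitted differences above 0 that did not pass the test. Irgm1 had 15.9, 20.8, 25.03, 22.4 and 20.5 CPM in SA libraries 1 to 5 and 24.98, 20.2, 19.9, 17.7 and 17.8 CPM in SE libraries 1 to 5 (log2 fold change 0.057 ± 0.130, edgeR adjusted p = 0.881; -0.11 ± 0.162 without SE libraries 3, 4 and 5). Irgm2 had 17.7, 23.4, 29.2, 25.1 and 23.5 CPM in SA and 27.7, 22.4, 21.1, 18.95 and 16.95 CPM in SE (log2 fold change 0.15 ± 0.149, adjusted p = 0.714; -0.070 ± 0.169 without SE libraries 3, 4 and 5). For both, SA 3 and SE 1 were the highest libraries, and SA 1 was the lowest SA library. Igtp, whose promoter stretch resembles that of Irgm2, had 12.05, 15.2, 18.7, 15.9 and 11.8 CPM in SA and 18.2, 12.8, 10.9, 11.6 and 9.05 CPM in SE (log2 fold change 0.23 ± 0.188, adjusted p = 0.647; -0.071 ± 0.203 without SE libraries 3, 4 and 5), again with SA 3 and SE 1 highest. Iigp1 had 12.7, 17.6, 18.9, 17.5 and 17.7 CPM in SA and 22.6, 16.7, 13.8, 13.1 and 12.9 CPM in SE (log2 fold change 0.094 ± 0.164, adjusted p = 0.843; -0.21 ± 0.168 without SE libraries 3, 4 and 5). Its 4 SA libraries other than SA 1 were close together, and SE 1 lay above all of them. Exons of Igtp and Irgm2 overlap on the same strand (8.01% and 4.39% of their exon length). Of their 50-base exon stretches, 11.8% and 7.83% also occur in other genes, so part of their reads may be shared.

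Cxcl9 and Cxcl10 are chemokines that draw in T cells through Cxcr3, and they did not vary alike. Cxcl9 had 2.53, 4.05, 3.95, 4.29 and 3.92 CPM in SA libraries 1 to 5 and 4.39, 2.64, 2.27, 3.20 and 2.74 CPM in SE libraries 1 to 5. SA 1 lay among the SE libraries and SE 1 above every SA library (log2 fold change 0.30 ± 0.204, edgeR adjusted p = 0.599; 0.094 ± 0.261 without SE libraries 3, 4 and 5). Cxcl10 had 3.37, 2.95, 3.64, 2.84 and 4.89 CPM in SA and 2.01, 2.07, 4.72, 4.58 and 3.15 CPM in SE, with SE 1 and SE 2 the lowest libraries and SE 3 and SE 4 near the top. SE 1, the highest library for 15 of 23 type I members, was thus its lowest. Its log2 fold change was 0.10 ± 0.267 over all libraries (adjusted p = 0.896) and 0.80 ± 0.255 without SE libraries 3, 4 and 5 (adjusted p = 0.349).

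The antigen processing members lie side by side on chromosome 17. Psmb9, an immunoproteasome subunit (chromosome 17, 34181987 to 34187764, minus strand), had 17.9, 19.4, 18.4, 17.7 and 17.7 CPM in SA libraries 1 to 5 and 15.99, 18.98, 13.6, 14.97 and 11.8 CPM in SE libraries 1 to 5. The SA libraries were tightly grouped and only SE 2 reached their range (18.2 ± 0.713 against 15.1 ± 2.68 CPM, SD, n = 5 each; log2 fold change 0.27 ± 0.116, edgeR adjusted p = 0.428; 0.064 ± 0.109 without SE libraries 3, 4 and 5). Psmb8, its partner subunit, had 19.7, 22.2, 24.02, 20.04 and 21.1 CPM in SA and 25.5, 21.8, 14.6, 17.99 and 13.9 CPM in SE, where SE 1 was highest and SE 3 and SE 5 lowest (log2 fold change 0.19 ± 0.155, adjusted p = 0.653; -0.14 ± 0.116 without SE libraries 3, 4 and 5). Tap1, a subunit of the peptide transporter of class I presentation, had 70.7, 71.97, 74.6, 67.7 and 72.5 CPM in SA and 63.2, 64.95, 69.5, 82.3 and 63.8 CPM in SE. SE 4 was its highest library, SE 3 lay within the SA range and the other SE libraries lay below it (log2 fold change 0.056 ± 0.0795, adjusted p = 0.799; 0.16 ± 0.0748 without SE libraries 3, 4 and 5). Exons of Psmb9 and Tap1 overlap on opposite strands (5.79% of Psmb9 exon length), as do 14.7% of Psmb8 with a predicted gene, and without a stated strand setting such reads cannot be told apart.

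Irf1, the transcription factor that carries much of the interferon-gamma response, had 23.5, 33.7, 35.8, 34.3 and 34.3 CPM in SA libraries 1 to 5 and 37.1, 25.8, 29.2, 27.2 and 24.5 CPM in SE libraries 1 to 5. SA 1 was the lowest library of all and SE 1 the highest, so the other libraries of each group lay between them (log2 fold change 0.17 ± 0.135, edgeR adjusted p = 0.648; 0.041 ± 0.176 without SE libraries 3, 4 and 5). Nos2, the inducible nitric oxide synthase, had 1.78, 2.29, 3.02, 2.57 and 3.15 CPM in SA and 2.54, 2.68, 1.78, 1.56 and 1.74 CPM in SE, with SE 3, SE 4 and SE 5 at or below the lowest SA library (log2 fold change 0.32 ± 0.214, adjusted p = 0.594; -0.015 ± 0.250 without those 3). Cd274 encodes PD-L1, the ligand that restrains T cells, and had 13.6, 15.5, 10.96, 15.9 and 13.4 CPM in SA and 11.6, 13.6, 13.1, 13.8 and 11.9 CPM in SE, with overlapping groups (log2 fold change 0.12 ± 0.114, adjusted p = 0.7101; 0.15 ± 0.160 without SE libraries 3, 4 and 5). An antisense gene covers 14.1% of its exon length, so part of its reads may be shared.

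Per kilobase of exon, the abundance of members over all 10 libraries spanned a wide range. Bst2 was the highest at 22.1 CPM per kilobase, followed by Tap1 at 12.8, Gbp2 at 9.55, Isg15 at 8.27 and Irf1 at 7.68 CPM per kilobase. At the low end were Gbp6 at 0.251, Oas3 at 0.281 and Mx2 at 0.391 CPM per kilobase.

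The larger pattern was between libraries of one group. SE 1 was the highest of the 10 libraries for 15 of 23 type I members, against 15.0% of all tested genes, and for 5 of 18 interferon-gamma members. SE 3, SE 4 and SE 5 were the 3 lowest libraries for 8 of 23 type I members (background 11.3%) and all lay below every SA library for 13 of 23 (background 13.8%). Among interferon-gamma members the same counts were 5 and 5 of 18. The mean log2 CPM of the type I class was 3.22 in SE 1, 2.59 in SE 2 and 2.24, 2.18 and 2.21 in SE 3, SE 4 and SE 5. In SA libraries 1 to 5 it was 2.68, 2.83, 2.97, 2.88 and 2.60. The SE libraries thus lay on both sides of the SA libraries and spanned 1.03 log2 units, against 0.37 in SA, and the means over each group's libraries were 2.79 ± 0.15 for SA and 2.49 ± 0.44 for SE (SD over 5 libraries). For the interferon-gamma class the spans were 0.36 in SA and 0.30 in SE, around means of 3.59 ± 0.154 and 3.46 ± 0.115. The median ratio of a member's highest to its lowest library was 2.71 in the type I class, 1.70 in the interferon-gamma class and 1.61 over all tested genes.

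**Figure D3:**
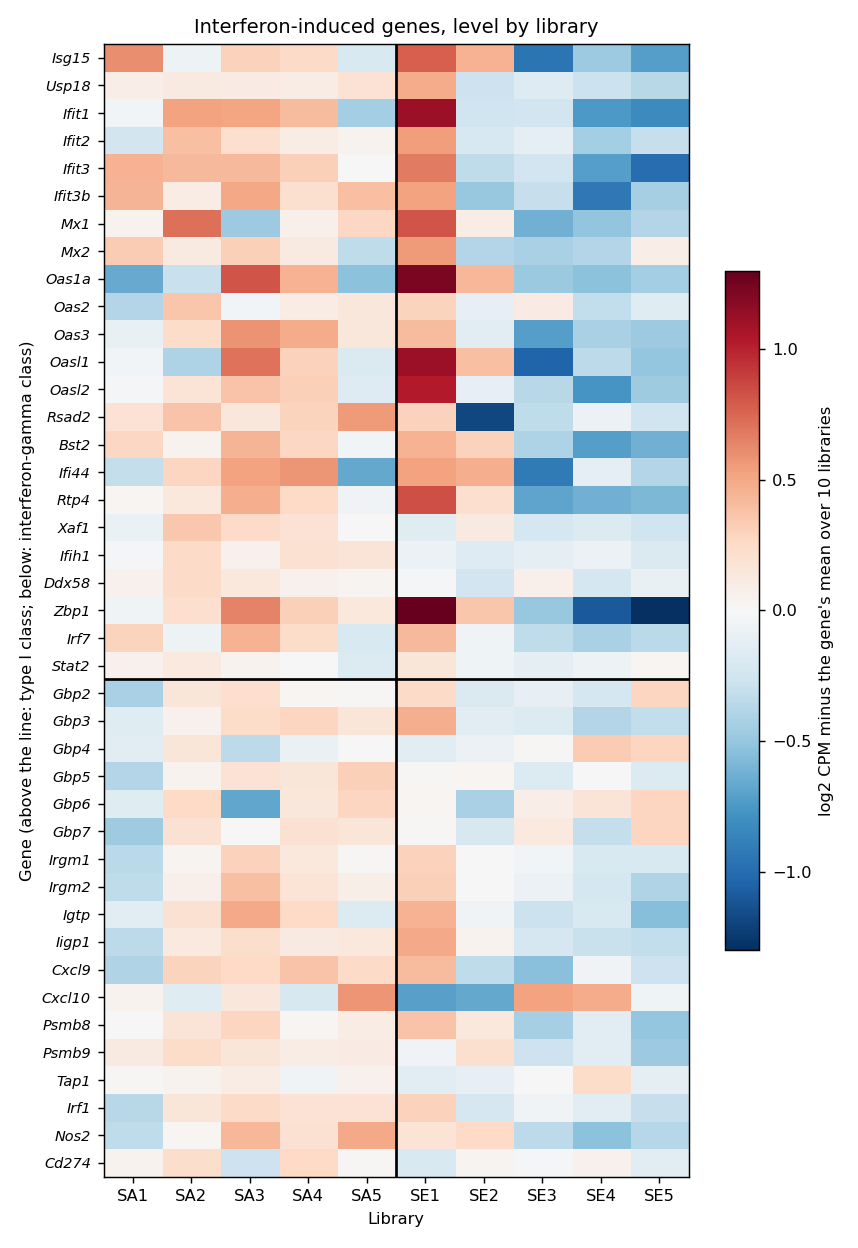
Level of each of the 41 members (rows, type I class above the line) in each of the 10 libraries (columns, SA left of the line), as log2 CPM minus the gene's mean over the 10 libraries; red is above and blue below that mean. In most type I rows the SE 1 column is red and the SE 3, SE 4 and SE 5 columns are blue, while Ifih1, Ddx58 and Stat2 are pale throughout. Some interferon-gamma rows are red in SE 3, SE 4 or SE 5, among them Cxcl10, Gbp4 and Tap1.

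SA 1 departed from the other SA libraries in the interferon-gamma class. It was the lowest of the 10 libraries for 6 of 18 interferon-gamma members (background 13.0%), and its class mean of 3.31 compared with 3.65, 3.65, 3.65 and 3.67 in SA 2 to SA 5. In the type I class SA 1 was 0.041 log2 units above the mean of the 10 libraries, while in the interferon-gamma class it was -0.21. Without SA 1, the fitted difference was above 0 for 17 of 18 interferon-gamma members (background 47.8%), their median was 0.20, and 0 members of either class were called (background 0.0467%).

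**Figure D4:**
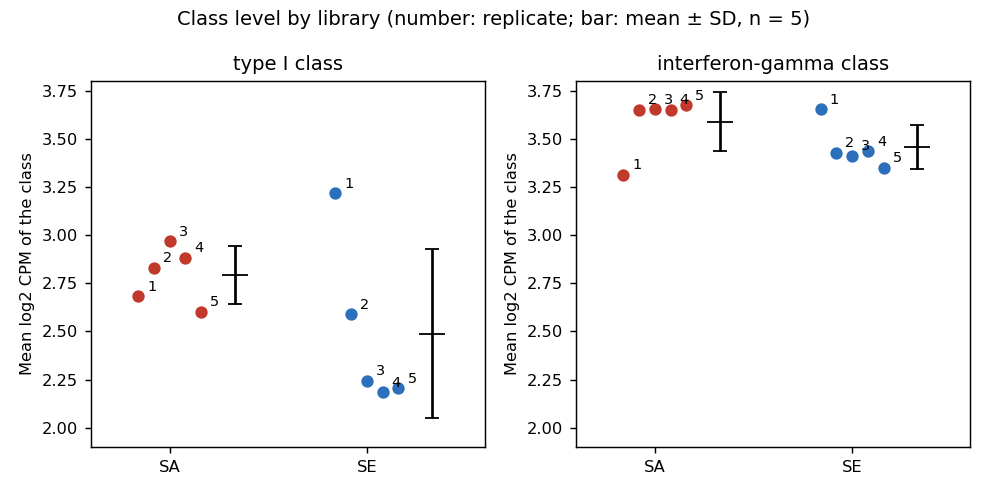
Mean log2 CPM of the type I class (left) and the interferon-gamma class (right) in each library, SA in red and SE in blue, with the replicate number beside each point and bars at the group mean ± SD (n = 5). In the left panel SE 1 lies above and SE 3, SE 4 and SE 5 below all SA points. SE 2 lies just below the lowest SA point there (2.590 against 2.601 in SA 5). In the right panel SA 1 is the lowest point.

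Several lists of cell type markers differed between the same libraries, and others did not follow them. The 6 macrophage markers (Adgre1, Cd68, Csf1r, Mrc1, C1qa and C1qb) summed to 841 CPM in SE 1, the highest of the 10 libraries, and to 402, 542, 325 and 465 CPM in SE 2 to SE 5. They summed to 361 CPM in SA 1, the lowest of the SA group, where SA 2 to SA 5 had 591 to 677 CPM. The 5 fibroblast markers were likewise highest in SE 1, at 66736 CPM, and lowest of all in SA 1, at 36035 CPM. The 4 adipocyte markers were also highest in SE 1, at 530 CPM, and had 343 CPM in SA 1, the lowest of the SA group. SA 1 was the lowest SA library for the 5 endothelial and the 6 dendritic and Langerhans cell markers too, at 280 and 46.8 CPM. In SE 1 these 2 lists had 319 and 50.9 CPM. The 5 B cell markers summed to 85.9 CPM in SE 1, 43.9 CPM in SE 2 and 37.2, 29.7 and 39.2 CPM in SE 3, SE 4 and SE 5, the 3 lowest libraries, against 52.1 to 101.6 CPM in SA. The 5 skeletal muscle markers were highest in SE 1, at 19558 CPM, and had 11426, 9473 and 9522 CPM in SE 3, SE 4 and SE 5, where SA libraries had 10266 to 19143 CPM. Neutrophil and gamma-delta T cell markers ran otherwise. The 8 neutrophil markers were highest in SA 1, at 77.1 CPM, and SE 1 had 21.4 CPM within an SE range of 21.2 to 33.5 CPM. The sum of the 6 gamma-delta T cell markers was lowest of all in SE 1, at 58.3 CPM. It was 91.3 and 93.0 CPM in SE 4 and SE 5, within the SA range of 86.2 to 100.7 CPM. Single markers of this list differed more than the sum, with 4 of 6 higher and 1 lower in SA at an unadjusted p under 0.05. The most abundant markers weigh most in the sum, so SE 4 and SE 5 cannot be read from it as having SA-like numbers of these cells. The 7 T cell markers summed to 45.9 to 50.6 CPM in SA and 35.4 to 40.6 CPM in SE, and the 6 natural killer cell markers to 3.20 to 4.60 and 2.97 to 5.04 CPM. The 5 plasmacytoid dendritic cell markers, for a cell type that makes much type I interferon, summed to 46.8 to 92.2 CPM in SA and to 88.7, 110.0, 56.6, 58.0 and 56.8 CPM in SE libraries 1 to 5. The sums of these 5 were high and low in much the same libraries as those of skeletal muscle. For both lists SA 2 was the lowest SA library, and skeletal muscle had 19305 CPM in SE 2. Of the 5, 3 were tested, with a median log2 fold change of 0.063. Whether their sum follows this cell type was not tested. At an unadjusted p under 0.05, higher in SA were 6 of 6 neutrophil markers tested, 4 of 6 gamma-delta T cell, 3 of 6 T cell, 2 of 3 B cell and 1 of 3 plasmacytoid dendritic cell markers, and 0 of the macrophage, fibroblast, skeletal muscle and natural killer cell markers (background 4.54%). Of the same lists, 1 gamma-delta T cell marker was lower in SA (background 6.53%). Among the other lists, 6 of 6 hair follicle markers were lower in SA, with a median log2 fold change of -5.02. Lower too was 1 of 6 keratinocyte markers, and 1 of 6 dendritic and Langerhans cell markers was higher. Of the adipocyte and endothelial markers 0 were higher and 0 lower. No marker of these lists was at 0 reads in every library. The part of these cells, and of the hair follicle markers of SE libraries 3, 4 and 5, in the levels of the members was not tested. In whole skin, fewer cells of a type and less RNA per cell cannot be told apart.

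The size of the class medians depended on which SE libraries were included. Without SE 1 the median log2 fold change was 0.45 in the type I class, with 23 of 23 members above 0 (background 49.7%), and 0.21 in the interferon-gamma class. In that fit 20 of 41 members had an unadjusted p under 0.05, all higher in SA (background 7.59%), and 1 member, Ifit3, was called. SE 1 was the highest of the 10 libraries for 15 of 23 type I and 5 of 18 interferon-gamma members (background 15.0%). Leaving out a gene's highest SE library raises its fitted difference, so these counts are no separate support for higher levels in SA. Log2 fold changes without SE 1 were 0.39 ± 0.102 for Usp18, 0.72 ± 0.199 for Oas3, 0.56 ± 0.159 for Oasl2, 0.55 ± 0.203 for Rtp4, 0.75 ± 0.308 for Zbp1 and 0.38 ± 0.112 for Gbp3. Without SE 4 the type I median was 0.11, and without SE 5 it was 0.13. The sign of the type I median therefore held in each fit that left out 1 library and not in the fit without SE libraries 3, 4 and 5.

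**Figure D5:**
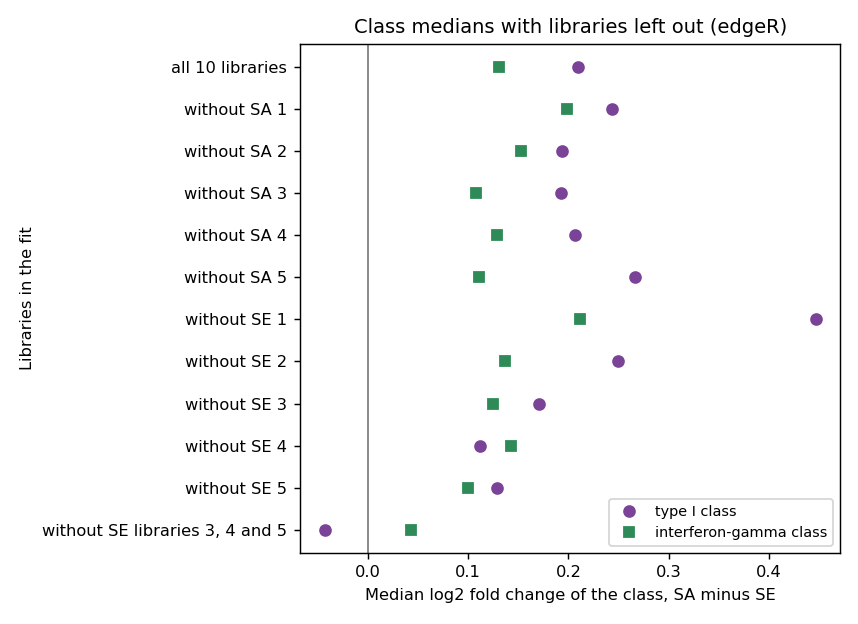
Median log2 fold change, SA minus SE, of the type I class (purple circles) and the interferon-gamma class (green squares) over all 10 libraries and with the named libraries left out. The type I median runs from 0.11 without SE 4 to 0.45 without SE 1, and lies at -0.043 when SE libraries 3, 4 and 5 are left out together.

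The interferons themselves were barely read. Of 21 ligand genes 0 had enough reads to be tested. Of these, 18, among them Ifnb1 and all interferon-alpha genes listed, had 0 reads in every library. This allows up to 3 uniquely aligned reads, or 0.121 to 0.141 CPM, per library (counting error only). Reads not aligned uniquely were not counted, and sequence shared between ligand genes was not examined, so their full level is not bounded by this. Ifng had 0, 0, 0, 2 and 4 reads in SA libraries 1 to 5 and 1, 1, 1, 4 and 2 in SE, with no library standing out. Ifnk, the keratinocyte interferon, had reads in SA 2 (4 reads), SA 3 (2 reads) and SE 5 (4 reads) and none in the other 7 libraries. At this depth no difference in ligand transcripts was detectable.

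All 6 receptor genes were tested and 0 were called (background 0.0769%). The type I receptor chain Ifnar1 had 56.9, 70.7, 68.00, 67.1 and 70.1 CPM in SA libraries 1 to 5 and 67.3, 65.7, 68.6, 65.1 and 66.8 CPM in SE libraries 1 to 5 (log2 fold change -0.0027 ± 0.0688, edgeR adjusted p = 0.991; 0.0070 ± 0.0956 without SE libraries 3, 4 and 5). Its partner Ifnar2 had 18.1 to 22.1 CPM in SA and 14.2 to 20.2 CPM in SE (log2 fold change 0.20 ± 0.101, adjusted p = 0.493; 0.062 ± 0.120 without SE libraries 3, 4 and 5). Ifngr1, the ligand-binding chain for interferon-gamma, was the only receptor with an unadjusted p under 0.05 (1 of 6 lower in SA, background 6.53%). It had 84.1, 108, 92.1, 103 and 108 CPM in SA and 107, 88.6, 143, 133 and 135 CPM in SE, and the SE libraries above the SA range were SE 3, SE 4 and SE 5 (log2 fold change -0.29 ± 0.129, edgeR adjusted p = 0.434; 0.026 ± 0.118 without those 3). Ifngr2 had 53.1 to 67.8 CPM in SA and 57.4 to 62.04 CPM in SE.

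Of 25 sensing and signalling genes, 0 were called (background 0.0769%). At an unadjusted p under 0.05, 2 of 25 were higher in SA (background 4.54%) and 0 were lower (background 6.53%). Tlr3, a receptor for double-stranded RNA, had 13.03, 19.8, 15.4, 18.1 and 16.7 CPM in SA libraries 1 to 5 and 14.9, 13.2, 14.4, 14.1 and 13.4 CPM in SE libraries 1 to 5 (log2 fold change 0.25 ± 0.111, edgeR adjusted p = 0.444; 0.24 ± 0.161 without SE libraries 3, 4 and 5). Tlr9, a receptor for unmethylated DNA, had 2.44, 4.05, 4.25, 4.70 and 4.53 CPM in SA and 4.19, 2.02, 2.67, 1.65 and 2.65 CPM in SE (log2 fold change 0.59 ± 0.254, edgeR adjusted p = 0.426; 0.36 ± 0.317 without SE libraries 3, 4 and 5). Irf9, the DNA-binding partner of Stat2, had 39.7 to 43.03 CPM in SA and 40.8 to 49.5 CPM in SE. Socs1, the inhibitor induced by the pathway, had 6.33, 3.87, 8.07, 6.77 and 6.42 CPM in SA and 6.12, 7.82, 3.16, 3.66 and 2.79 CPM in SE, with SE 3, SE 4 and SE 5 the 3 lowest libraries (log2 fold change 0.41 ± 0.290, adjusted p = 0.604; -0.14 ± 0.243 without SE libraries 3, 4 and 5).

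Of 34 further interferon-induced genes outside the list, 29 were tested and 0 called (background 0.0769%). At an unadjusted p under 0.05, 2 of the 29 were higher in SA (background 4.54%) and 0 lower (background 6.53%), and 26 fitted differences were above 0 (background 48.3%). Without SE libraries 3, 4 and 5, 16 of 30 tested were above 0 (background 49.6%). Without SE 1, 11 of 29 were higher in SA at an unadjusted p under 0.05 (background 7.59%), and 1 of them, Ly6e, was called (edgeR adjusted p = 0.0460; background 1.32%). SE 1 was the highest of the 10 libraries for 10 of the 29 (background 15.0%), and leaving it out raises their fitted differences. Ifi47, another immunity-related GTPase, had 7.45, 9.63, 10.9, 9.16 and 9.46 CPM in SA libraries 1 to 5 and 6.97, 6.33, 8.37, 5.40 and 6.31 CPM in SE libraries 1 to 5. Only SE 3 lay within the SA range (log2 fold change 0.48 ± 0.142, edgeR adjusted p = 0.251; 0.49 ± 0.169 without SE libraries 3, 4 and 5). Ly6e, a surface protein of many cells, had 239.5, 279, 320.1, 291 and 264 CPM in SA and 304, 224, 211, 187 and 183 CPM in SE, and SE 1 was the only SE library within the SA range (log2 fold change 0.33 ± 0.135, edgeR adjusted p = 0.409; 0.085 ± 0.139 without SE libraries 3, 4 and 5).

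The authors' deposited table, made from the same reads, listed 0 of 41 members at an adjusted p under 0.05 (background 1.15%, or 215 genes). A log2 fold change above 0 was given for 37 of 41 members by the authors' deposited table, and the sign matched that of the edgeR fit for 40 of 41. Ifih1 had the log2 fold change 0.25 and the adjusted p 0.0714 in the authors' deposited table.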

How the data were processed

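RNA of 10 whole-skin libraries (5 SA, 5 SE, grouped by title) was sequenced. The authors deposited counts of reads per Ensembl gene. The submitters' processing notes name STAR 2.4.2a and HTSeq 0.6.1p1, besides SAMtools, and the build GRCm38. How HTSeq treated strand, and which annotation release it used, the sources used here do not give. The 5 rows that name no gene were left out, which left 65.4% to 69.5% of reads on genes. Reads not aligned uniquely took 23.1% to 26.7%, which can lower genes with near-identical copies. The authors' deposited comparison table, made with DESeq2, holds normalized means (a signal), log2 fold changes, a test score and p-values. It entered no test.

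The count test was edgeR 4.0.16 under R 4.3.3 (filterByExpr, minimum count 10, TMM, two-sided quasi-likelihood test, no covariates, prior count 0.125), adjusted by Benjamini-Hochberg at 0.05. The code was tested on simulated data. Alternatives were DESeq2 1.42.0, voom in limma 3.58.1, other size factors, other filters, a replicate block, and leaving out libraries. CPM is TMM-scaled, and errors are SDs over 5 libraries or standard errors of fold changes. For total gene reads the exact permutation p between groups was 0.81. No 2 replicates agreed within sampling noise (chi-square per degree of freedom 5.1 to 83.9).

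The members and lists were chosen with earlier results of these data known. A gene of the signalling list is not reported here. Values in every library are given for the 4 members of each class with the smallest p, the 4 with the highest mean CPM and a fixed set, and for chosen pathway genes and those with an unadjusted p under 0.05. Coordinates and exon overlaps come from the GENCODE annotation of GRCm38, and promoter sequences from RefSeq.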

Additional observations from a re-analysis of the deposited data

Results flagged for a closer look

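In 10 of 82 groups (41 members in 2 groups of 5 libraries) the highest or lowest library lay far from the rest, by Dixon's criterion of a gap over 0.71 of the group's range. Chance alone gives such a gap in about 1 group in 20, and members that vary together are not independent.

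SE 1 was the distant library in 5 SE groups. It had 10.9 CPM for Usp18, 12.9 for Ifit1, 19.2 for Ifit2, 22.04 for Oasl2 and 19.7 for Gbp3, where the nearest other SE library had 6.94, 5.03, 12.2, 10.02 and 12.8 CPM. The macrophage, fibroblast, adipocyte, skeletal muscle and natural killer cell markers were highest in the same library. They summed there to 841, 66736, 530, 19558 and 5.04 CPM, and their part was not tested. SE 2 was high for Xaf1, at 9.18 CPM against 7.57 in the next library.

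SA 1 was low for 3 interferon-gamma members, with 12.7 CPM for Iigp1, 2.53 for Cxcl9 and 23.5 for Irf1, where the nearest other SA library had 17.5, 3.92 and 33.7 CPM. The macrophage and fibroblast markers summed to 361 and 36035 CPM in SA 1, the lowest of the SA group. SA 1 was also the lowest SA library for the adipocyte, endothelial, dendritic and Langerhans cell, and B cell markers, at 343, 280, 46.8 and 52.1 CPM. The part of these lists was not tested. SA 5 was high for Usp18, at 8.85 CPM against 8.45 in the next, a group whose whole range was small.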

How the results depend on the processing

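The count of members called was 0 with edgeR, with limma voom, with other size factors, with both other filters, with the replicate block and without SE libraries 3, 4 and 5, and 1 with DESeq2 (Ifih1). Leaving out each library in turn gave 0 to 1 members called, the 1 being Ifit3 without SE 1, and 3 to 20 members with an unadjusted p under 0.05, the 20 without SE 1. SE 1 was the highest of the 10 libraries for 20 of 41 members (background 15.0%), and leaving it out raises their fitted differences. Over all genes 298 were called with DESeq2, 41 without SE libraries 3, 4 and 5, and 7 to 225 with 1 library left out (152 without SE 2), against 13 with edgeR on all libraries, and the cause was not tested. The type I median ran from 0.11 to 0.45 and the interferon-gamma median from 0.10 to 0.21 with 1 library left out.

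Without SE libraries 3, 4 and 5, the fitted sign turned for 23 members. The log2 fold changes were then -0.17 for Bst2, -0.067 for Gbp3, 0.046 for Gbp4, 0.19 for Gbp6, -0.34 for Ifi44, -0.35 for Ifit1, -0.093 for Ifit2, -0.071 for Igtp, -0.21 for Iigp1, -0.037 for Irf7, -0.11 for Irgm1 and -0.070 for Irgm2. They were -0.42 for Isg15, -0.32 for Mx1, -0.035 for Mx2, -0.015 for Nos2, -0.043 for Oas2, -0.42 for Oasl2, -0.14 for Psmb8, -0.38 for Rtp4, -0.038 for Stat2, -0.034 for Usp18 and -0.63 for Zbp1. This fit has 2 SE libraries, and the cause was not tested. Of the 41 members, 13 kept their sign in all 17 alternatives.

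With 1 library left out, 12 members changed sign in at least 1 fit. Their ranges were -0.036 to 0.27 for Cxcl10, -0.059 to 0.087 for Gbp2, -0.13 to 0.098 for Gbp6, -0.020 to 0.15 for Gbp7, -0.021 to 0.30 for Ifi44, -0.014 to 0.15 for Irgm1, -0.42 to 0.27 for Oas1a, -0.0071 to 0.17 for Oas2, -0.19 to 0.41 for Oasl1, -0.013 to 0.56 for Oasl2, -0.0097 to 0.070 for Stat2 and -0.028 to 0.75 for Zbp1. Near 0, no filter gave 0.015 for Gbp2 and 0.012 for Oasl1, and voom gave 0.13 for Oasl1.

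Libraries with the same number did not vary together (correlations of their deviations -0.29 to 0.072), and 1 of 10 correlated best with its own number, so the numbers were not taken as pairs. With the replicate block 10 genes were called and 0 members, 5 members had an unadjusted p under 0.05, the medians were 0.27 and 0.14, and Oasl1 changed sign to 0.10.

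Depth limits the least abundant members, down to 12 reads in a library, and the interferon genes, which were not tested. Copies that share sequence (Ifit3 with Ifit3b, Oas1a, Gbp6 and, in part, Igtp with Irgm2) limit which gene a read belongs to. Shared sequence was not examined for the interferon genes.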
